A study of Mus musculus with 24 samples.

Results

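The genes described here are 10 chemokines that intestinal epithelial cells can make: Cxcl1, Cxcl2, Cxcl5, Cxcl9, Cxcl10, Cxcl16, Cx3cl1, Ccl20, Ccl25 and Ccl28. Their chromatin was followed through every accessible region (peak) that the deposited peak annotation assigns to one of them within 50000 bp of its transcription start site. That rule gave 68 of the 150646 peaks of the series. Of the 68 peaks, 64 had enough counts to be tested, and the 4 others held 23 to 49 counts over all 6 libraries. The assay was ATAC-seq: a transposase, Tn5, tags DNA that is free of nucleosomes, so that reads pile up where chromatin is open.

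The cells were small intestinal epithelial cells taken directly from mice of the C57BL/6JRj strain, released by EDTA and trypsin and kept by cell sorting if positive for the epithelial surface protein EpCam and negative for the leukocyte protein CD45. They form an aged group (libraries aged 1, 2 and 4) and a young group (young 1, 2 and 4), with n = 3 libraries per age, and no treatment or altered allele is named for either. The design text gives ages of 20 to 22 months for aged and 2 to 3 months for young mice, but in sentences on other assays of the series. Whether the 3 libraries of an age are 3 mice is not spelled out in the labels. The p-values here therefore reflect library-to-library spread, part of which may be technical.

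Chemokines are small secreted or membrane-tethered proteins that bind G-protein-coupled receptors and direct the movement of leukocytes. The gut epithelium makes some of them all the time, to bring lymphocytes into the mucosa, and others on demand, when NF-kB or interferon signalling is switched on by microbes or cytokines. An open promoter is needed for either use but is not a measure of transcription. In a bulk library, fewer cells with an open site and a less open site in each cell cannot be told apart.

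NF-kB and interferon-activated factors bind short DNA motifs, and the promoters of 4 inducible members are shown first because they hold such motifs. RefSeq promoter sequence (GRCm38.p6) was found for 8 of the 10 genes, and Ccl25 has a pair of starts. Capitals mark matches, on either strand, to the NF-kB consensus, or, in Cxcl10, also to the core of the interferon response element (GAAA, any 2 bases, GAAA). The runs end at the base before the start, and the first 3 cover the last 100 bases, the fourth the last 250.
Cxcl1, chr5:90891145-90891244, plus strand: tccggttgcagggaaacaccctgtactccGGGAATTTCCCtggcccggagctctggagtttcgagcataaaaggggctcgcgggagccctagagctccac
Cxcl2, chr5:90903799-90903898, plus strand: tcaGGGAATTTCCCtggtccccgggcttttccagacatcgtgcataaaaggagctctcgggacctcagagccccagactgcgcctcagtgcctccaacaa
Ccl20, chr1:83116666-83116765, plus strand: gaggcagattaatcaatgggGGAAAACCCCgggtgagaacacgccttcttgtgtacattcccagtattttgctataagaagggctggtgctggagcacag
Cxcl10, chr5:92348890-92349139, minus strand: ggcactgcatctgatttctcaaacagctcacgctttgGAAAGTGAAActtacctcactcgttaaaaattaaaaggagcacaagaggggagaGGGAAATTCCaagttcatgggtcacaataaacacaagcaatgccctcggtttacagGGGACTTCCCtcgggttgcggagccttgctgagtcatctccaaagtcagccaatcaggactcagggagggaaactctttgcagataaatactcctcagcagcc

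Cxcl1 and Cxcl2 hold the same 11 letters, GGGAATTTCCC, which is a match on both strands and counts as 2 overlapping matches; they begin 71 and 97 bases before the start. Ccl20 has a match 80 bases before its start, and Cxcl10 has matches beginning 159 and 103 bases before its start, with the interferon element beginning 213 bases before it. The NF-kB consensus occurs in 3.9% of all 32851 RefSeq promoter windows of 250 bases, and the interferon element core in 2.98%. The interferon-gamma element TTCNNNGAA, present in 7.02% of windows, was found in none of the members' windows. The match lies inside a peak at Cxcl1, Ccl20 and Cxcl10, and outside every peak at Cxcl2. These matches describe letters in the reference and say nothing of binding in these cells.

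Of the members that act mainly in the resting mucosa, Ccl28 has no match to any of these motifs, and its 250 bases are shown because the peak over them differed widely between young libraries; capitals mark the 199 bases inside that peak. Ccl25 is shown at the downstream of its pair of starts, where TATAAA, found in 12.4% of windows, begins 16 bases before the start.
Ccl28, chr13:119623569-119623818, plus strand: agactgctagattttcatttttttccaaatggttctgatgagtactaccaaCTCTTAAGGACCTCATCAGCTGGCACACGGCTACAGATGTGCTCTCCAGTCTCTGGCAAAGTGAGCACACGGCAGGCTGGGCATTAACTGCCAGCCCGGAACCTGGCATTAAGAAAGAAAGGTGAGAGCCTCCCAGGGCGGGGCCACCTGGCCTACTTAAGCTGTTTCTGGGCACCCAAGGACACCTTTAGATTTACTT
Ccl25, downstream start, chr8:4349488-4349587, plus strand: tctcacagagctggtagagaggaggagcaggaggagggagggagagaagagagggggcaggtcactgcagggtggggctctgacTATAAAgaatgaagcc
The upstream Ccl25 start lies in a window of another kind, with 45 CpG dinucleotides in 250 bases, more than in nearly all windows (percentile 99.7), against 0 CpG at the downstream start. TATAAA also occurs 195 bases before the Cxcl9 start and 6 bases before the Cx3cl1 start. These motif distances run from the RefSeq start, and peak distances from the start in the deposited annotation, which can differ. At Cx3cl1 the RefSeq window ends at chr8:94772179, while the annotation places the start at chr8:94772009.

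Total counts in peaks ran over 16900796 to 23935291 in aged libraries and over 6149680 to 22819924 in young libraries, and young 4 was the shallowest. Levels are given as CPM, counts scaled to library size with edgeR's TMM factors, and a positive log2 fold change means higher in aged cells. A call is an adjusted p below 0.05 (Benjamini-Hochberg) in edgeR's quasi-likelihood test fitted over all features. The sort was checked against marker genes. Of 13 epithelial markers, 11 had a promoter peak, meaning a peak assigned to the gene within 1000 bp of its start. These summed to 1254 to 1275 CPM of promoter reads in aged and 1274 to 1351 in young libraries. Of 27 leukocyte markers, 5 had one (4 tested), summing to 61.4 to 90.7 in aged and 59.8 to 69.4 in young libraries, and Ptprc, which encodes CD45, had none.

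At their start sites the members spanned a wide range of accessibility, in a similar order at both ages. To compare genes, the peak at the start was expressed as CPM per kb of peak and averaged over the 6 libraries. Ccl28 was the most open at 107.4 ± 25.4 CPM per kb (SD, n = 6), above 99.5% of all tested peaks. Cxcl16 followed at 70.3 ± 6.01, Ccl25 at 62.0 ± 5.55, Cx3cl1 at 57.4 ± 2.85 and Cxcl10 at 56.5 ± 6.14. The Cxcl16 and Ccl25 values are from the peaks at their starts, which the annotation assigns to Zmynd15 and Elavl1. Reads in these peaks cannot be divided between the member and its neighbour, so neither value is the member's alone. The peaks assigned to Cxcl16 itself averaged 16.5 and 35.0 CPM per kb. Neighbours among these 5 overlapped in range over the libraries, so their order is not fixed. Ccl20 (33.5 ± 3.22) and the downstream Ccl25 start (33.2 ± 2.08) formed a middle level that did not overlap Cxcl10. Cxcl9 came next at 13.9 ± 2.11, and Cxcl2 (8.97 ± 3.48), Cxcl1 (8.25 ± 1.84) and Cxcl5 (7.50 ± 1.72), which attract neutrophils, were lowest. These 3 overlapped one another, and Cxcl2 in young 4 overlapped Cxcl9. Their start-site peaks stood at percentiles 41.8, 38.1 and 33.7 of all tested peaks.

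**Figure D1:**
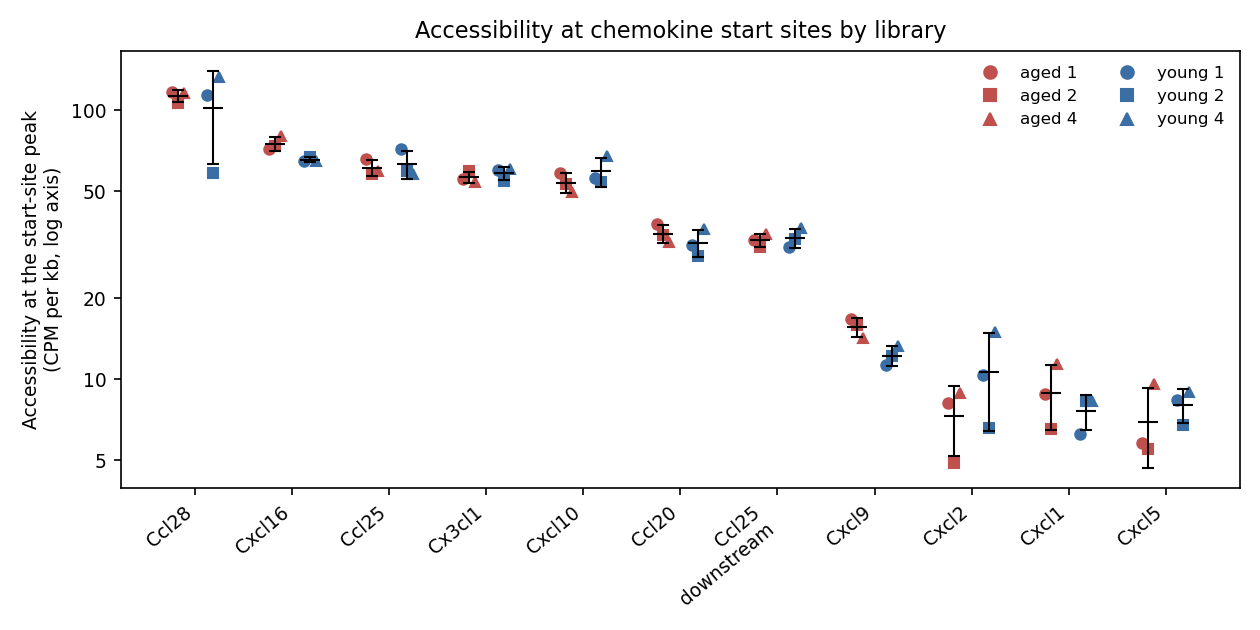
Accessibility at the peak over or nearest to each start site, in CPM per kb of peak on a log axis. Each symbol is 1 library, and black marks give mean ± SD per age (n = 3). Ccl28 was highest and Cxcl2, Cxcl1 and Cxcl5 lowest at both ages, and young 2 stands low at Ccl28.

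Between ages few member peaks differed. Of the 64 tested, 2 were called higher in aged cells and 0 lower. Of all 129588 tested peaks, 1.6% were called, 1.07% higher and 0.528% lower. Unadjusted p was below 0.05 at 3 of the 64, while 8.82% of all peaks were at that level. In 4 member peaks the ages did not overlap, while 13.9% of all peaks did not. The median log2 fold change was 0.09 over the members' peaks and -0.00384 over all peaks, with 41 of 64 above 0 among the members' peaks and 49.3% of all peaks. The 41 include all 8 tested Ccl28 peaks, at most of which young 2 was the lowest library. By position, 28 of the 68 peaks were intergenic, 15 intronic, 14 at promoters, 9 exonic and 2 at transcription ends.

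**Figure D2:**
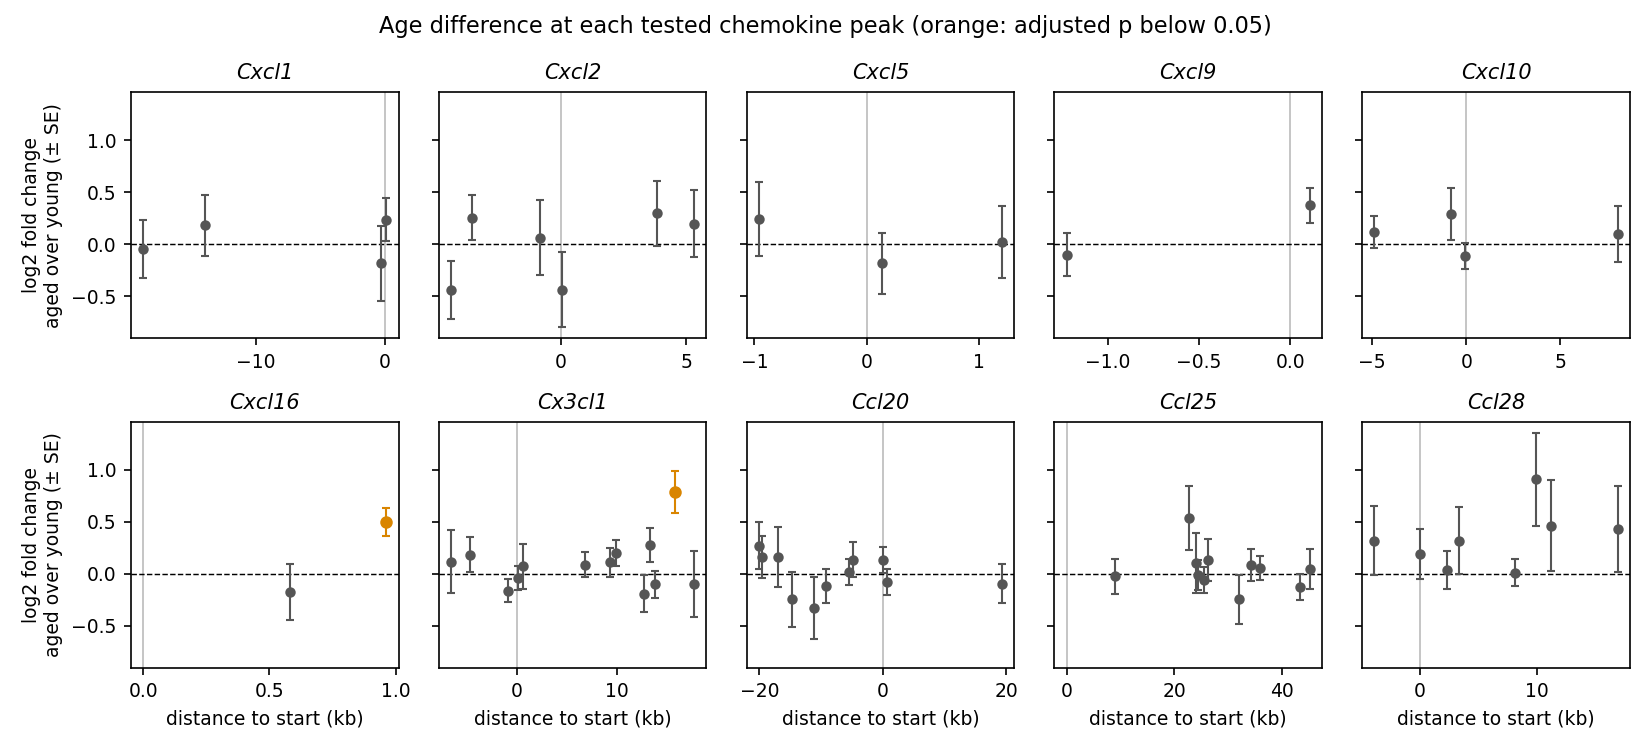
log2 fold change (aged over young, ± SE) of the 64 tested peaks against distance from the start of their gene, in kb, with 1 panel per gene and its own distance axis. The called peaks, in orange, lie 15808 bp from the Cx3cl1 start and 963 bp from the Cxcl16 start; all others are grey.

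Summed over promoters (assigned peaks within 1000 bp of the start), 9 members could be tested and 0 were called, where 1.74% of 13880 promoters were called by edgeR; 2 of the 9, Cxcl16 and Cxcl9, had an unadjusted p below 0.05, against 8.93% of all promoters. Summed over neighbourhoods (all peaks assigned to the gene within 50000 bp), all 10 were tested and 0 were called, where 1.84% of 27234 neighbourhoods were called, and 1, Cxcl16, had an unadjusted p below 0.05, against 8.92% of all neighbourhoods. Neighbourhood log2 fold changes were above 0 for 9 of 10 members, against 49.2% of all neighbourhoods. They ran from -0.01 (Cxcl10) to 0.41 (Cxcl16), and only those of Cxcl16, Ccl28 and Cxcl9 exceeded 0.1. That of Ccl28 was -0.01 without young 2. With peaks taken by position, the neighbourhoods of Ccl20, Ccl25 and Cxcl5 had values below 0. With the replicate number as a block, the calls were 3 peaks (those 2 and 1 of Ccl28), 1 promoter and 1 neighbourhood (both Cxcl16). Over all features the block called 3998 of 129588 peaks, 464 of 13880 promoters and 1262 of 27234 neighbourhoods, more than the main test.

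**Figure D3:**
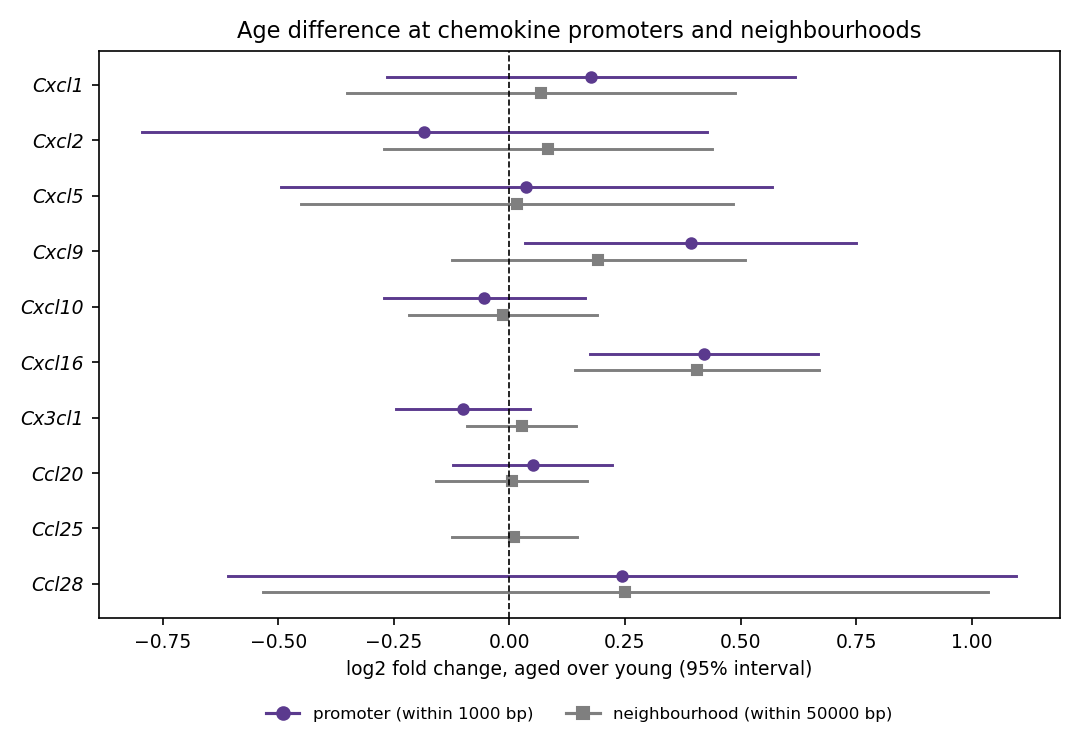
log2 fold change of each member's promoter (circles) and neighbourhood (squares), aged over young, with 95% intervals from edgeR (n = 3 libraries per age). Both Cxcl16 intervals lie above 0, the Ccl28 intervals are the widest, and Ccl25 has no peak assigned within 1000 bp of its start.

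The neutrophil attractants Cxcl1, Cxcl2 and Cxcl5, ligands of the receptor Cxcr2 whose genes lie close together on chromosome 5, were weakly open and showed no called peak. The Cxcl1 peak centred 119 bp after the start had 4.75, 3.51 and 6.13 CPM in aged libraries and 3.39, 4.46 and 4.46 in young libraries. The ages overlapped, and the log2 fold change was 0.24 ± 0.21 (SE). At the Cxcl2 start the peak had 1.05, 0.627 and 1.14 CPM in aged and 1.33, 0.842 and 1.91 in young libraries, with a log2 fold change of -0.44 ± 0.36 and 110 counts over all libraries. The Cxcl5 peak 139 bp after the start had 1.23, 1.17 and 2.04 CPM in aged and 1.78, 1.44 and 1.91 in young libraries, a log2 fold change of -0.18 ± 0.30; the Cxcl5 peak of smallest p, 961 bp before the start, had 0.25 ± 0.36. These start peaks were shallow and the promoter intervals wide: they ran from -0.26 to 0.62 for Cxcl1, -0.79 to 0.43 for Cxcl2 and -0.49 to 0.57 for Cxcl5. Of the 13 tested peaks of these genes, the smallest p was at the Cxcl2 peak 4355 bp before the start, with 1.91, 1.17 and 1.70 CPM in aged and 2.33, 1.78 and 2.39 in young libraries (log2 fold change -0.44 ± 0.28, edgeR adjusted p = 0.752).

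Cxcl9 and Cxcl10, interferon-induced ligands of Cxcr3 that attract activated T cells, are neighbours on chromosome 5, and neither had a called peak. Cxcl9 had 7.40, 7.06 and 6.30 CPM in aged libraries and 4.99, 5.40 and 5.89 in young libraries at its peak 107 bp after the start. Every aged library lay above every young one, but the log2 fold change of 0.37 ± 0.17 was not called (edgeR p = 0.0333, adjusted p = 0.483). The other Cxcl9 peak, 1226 bp before the start, overlapped between ages (log2 fold change -0.10 ± 0.21). Cxcl10 had 22.6, 20.5 and 19.1 CPM in aged and 21.5, 20.8 and 26.0 in young libraries at the peak that covers its NF-kB matches, centred 89 bp before the start. That is a log2 fold change of -0.12 ± 0.12, with a 95% interval of -0.37 to 0.14. The Cxcl10 peak with the smallest p, 793 bp before the start, had a log2 fold change of 0.29 ± 0.25.

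Cxcl16 and Cx3cl1 are the only chemokines made as membrane-anchored proteins, which can tether passing leukocytes and are shed by the proteases Adam10 and Adam17. They held both called peaks. Cxcl16, the ligand of Cxcr6 on intraepithelial and innate-like lymphocytes, had 14.4, 14.7 and 13.9 CPM in aged libraries and 9.47, 10.6 and 10.5 in young libraries at a peak 963 bp after its start (chr11:70458695-70459044). The aged libraries were tightly grouped and all above the young ones, a log2 fold change of 0.50 ± 0.13 (edgeR adjusted p = 0.0488). That value sits at the threshold. It was not below 0.05 without any 1 of the 6 libraries (adjusted p 0.0546 to 0.228, log2 fold change 0.44 to 0.54), nor with DESeq2 (0.115). The adjusted p was 0.0508 to 0.0574 with DESeq2's size factors in edgeR, without TMM, with limma-voom, without robust dispersions or without a filter on low counts. With the replicate number as a block it was 0.0044. The smaller Cxcl16 peak, 581 bp after the start, had 1.48, 1.92 and 2.04 CPM in aged and 2.29, 1.58 and 2.55 in young libraries (log2 fold change -0.17 ± 0.27).

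The promoter sum of Cxcl16 was 44.8, 49.6 and 49.2 CPM of promoter reads in aged and 32.0, 36.8 and 41.6 in young libraries. The ages did not overlap, and the log2 fold change was 0.42 ± 0.12 (edgeR adjusted p = 0.0792). It was called with the replicate block (0.41, adjusted p = 0.0150) and without young 4 (0.48, adjusted p = 0.0249). Its neighbourhood had a log2 fold change of 0.41 ± 0.13 (edgeR adjusted p = 0.146), and 0.40 with the block (adjusted p = 0.0221). This is no separate result, since the neighbourhood of Cxcl16 sums the same 2 assigned peaks as its promoter. With all 28 peaks within 50000 bp by position, whichever gene they are assigned to, it had a log2 fold change of 0.00 (edgeR adjusted p = 0.996). The promoters whose log2 CPM followed that of Cxcl16 most closely over the 6 libraries were Ecscr (Pearson r = 0.993), Sgms1 (0.992) and Krt23 (0.990); these r describe 6 points that fall apart by age, and 30 of 13879 promoters exceeded 0.95.

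Cxcl16 starts close to Zmynd15, which is read from the opposite strand. The annotation assigns the peak centred 184 bp before the Cxcl16 start (chr11:70459837-70460196) to Zmynd15 but classes it as promoter of Cxcl16. That peak had 25.7, 26.6 and 28.8 CPM in aged libraries and 23.3, 24.1 and 23.2 in young libraries. The ages did not overlap, but the log2 fold change of 0.20 ± 0.12 was not called (edgeR adjusted p = 0.719). With peaks taken by position, whichever gene they are assigned to, the Cxcl16 promoter had a log2 fold change of 0.29 (edgeR adjusted p = 0.104). ATAC reads there cannot be divided between these genes. The called peak is in turn assigned to Cxcl16 but classed as promoter of Zmynd15. A weak peak 46992 bp after the Cxcl16 start and named for Pelp1 had 3.33, 3.30 and 4.71 CPM in aged and 0.824, 0.743 and 0.796 in young libraries (chr11:70412718-70412962, log2 fold change 2.25 ± 0.28, edgeR adjusted p = 2.53e-06), and was called without each library in turn.

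Cx3cl1, also called fractalkine, is the ligand of Cx3cr1 on gut macrophages. Its called peak lies 15808 bp after the start, in intergenic sequence (chr8:94787654-94787980). It had 5.36, 4.55 and 4.88 CPM in aged libraries and 2.93, 2.67 and 3.03 in young libraries, with no overlap, a log2 fold change of 0.79 ± 0.20 (edgeR adjusted p = 0.0296). The peak holds 419 counts over all libraries. The call was lost without aged 1 (0.72, adjusted p = 0.133), aged 4 (0.79, 0.0780), young 1 (0.82, 0.0850) or young 2 (0.73, 0.249), with DESeq2 (adjusted p = 0.117) and when all libraries were thinned to the depth of young 4 (0.61, adjusted p = 0.599).

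No other Cx3cl1 peak was called. The peak nearest the start, 137 bp after it, had 20.0, 21.4 and 19.5 CPM in aged and 21.5, 19.7 and 21.8 in young libraries (log2 fold change -0.04 ± 0.12). The strongest, 894 bp before the start, had 49.6, 50.2 and 44.4 CPM in aged and 53.4, 50.1 and 59.1 in young libraries (-0.16 ± 0.11). The promoter sum gave -0.10, with a 95% interval of -0.25 to 0.04. At 12719 bp after the start, aged libraries (5.18, 4.64 and 5.28 CPM) all lay below young ones (5.45, 5.30 and 7.01 CPM), uncalled at -0.19 ± 0.18. Of the sheddases, neither had a peak assigned to it within 1000 bp of its start. A peak over the start that is assigned to a neighbouring gene would be missed, so this does not show closed promoters. Neighbourhood log2 fold changes were -0.51 ± 0.24 for Adam10 and 0.55 ± 0.30 for Adam17, neither called (edgeR adjusted p = 0.545 and 0.667).

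**Figure D4:**
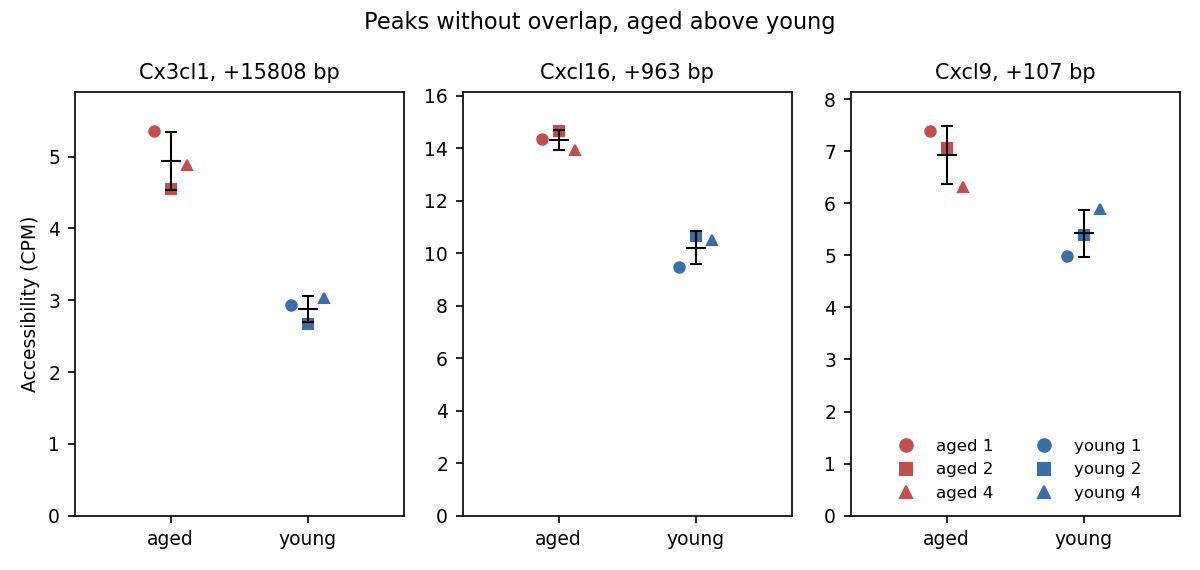
CPM by library at the called peaks of Cx3cl1 and Cxcl16 and at the Cxcl9 start peak, which was not called; each symbol is 1 library and black marks give mean ± SD (n = 3 per age). Aged libraries lie above young ones without overlap in all 3 panels.

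Markers of other cells that can express Cxcl16, Cx3cl1 or Cxcl9 were read beside these peaks. All 4 tested leukocyte promoters had a log2 fold change above 0 (0.09 to 0.40), with the largest at the macrophage gene Cd68 (18.1, 14.3 and 25.9 CPM of promoter reads in aged, 14.1, 16.0 and 12.7 in young libraries), and 0 were called. At neighbourhoods, 15 of 17 tested leukocyte genes were above 0, against 49.2% of all neighbourhoods, and the lowest stood at -0.55. Their sums overlapped, at 158.5 to 171.8 CPM of neighbourhood reads in aged and 142.3 to 160.2 in young libraries. The weakly covered Cd8a had 0.924, 1.19 and 2.33 CPM in aged and 0.340, 0.381 and 0.878 in young libraries (1.73 ± 0.46, edgeR adjusted p = 0.0567). Cd8a, a T cell gene, was called higher in aged cells with the replicate block (1.49, edgeR adjusted p = 0.0162), with cyclic loess scaling (0.0221), within 10000 bp (0.0465), without aged 1 (0.0185) and without young 4 (0.0219). It was not called in the main test or at the other settings with the threshold of 0.05. The 3 tested tuft cell promoters summed to 71.9 to 85.1 in aged and 61.3 to 67.6 in young libraries, without overlap and with 0 called. Of 5 tested tuft cell neighbourhoods, 3 were above 0 and 2 below, with 0 called. Those sums overlapped, at 71.1 to 82.4 CPM of neighbourhood reads in aged and 64.5 to 71.3 in young libraries. Of stromal and endothelial genes, 3 of 4 tested promoters and 6 of 10 tested neighbourhoods were above 0, with 0 called. Those neighbourhoods summed to 208.6 to 213.9 CPM of neighbourhood reads in aged and 198.7 to 215.8 in young libraries, which overlapped. The endothelial gene Cdh5 was called lower in aged cells with the replicate block (neighbourhood -0.43, edgeR adjusted p = 0.0357). The part of these cells in the chemokine peaks was not tested.

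Ccl20, Ccl25 and Ccl28 draw lymphocytes into the mucosa, and none of their 30 tested peaks was called. Ccl20, the ligand of Ccr6 made over lymphoid follicles and induced by flagellin and interleukin 17, had 22.0, 20.1 and 19.0 CPM in aged and 18.5, 16.8 and 21.2 in young libraries at the peak over its start and NF-kB match (log2 fold change 0.13 ± 0.12). Its 11 peaks ran between -0.33 and 0.27, the smallest p being at the peak 20091 bp before the start (0.27 ± 0.23), and the promoter interval was narrow, -0.12 to 0.22. Its neighbourhood had a log2 fold change of 0.00 ± 0.08.

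Ccl25, the ligand of Ccr9 that homes T cells and plasma cells to the small intestine, had no called peak. The peak over its CpG-rich upstream start is assigned to the neighbouring Elavl1 and had 63.2, 55.5 and 57.4 CPM in aged and 68.9, 57.3 and 55.6 in young libraries (-0.05 ± 0.11). The peak over the downstream start, where the TATAAA lies, had 10.1, 9.53 and 10.7 CPM in aged and 9.52, 10.2 and 11.1 in young libraries (-0.01 ± 0.14). The assigned peak nearest the upstream start, 8938 bp after it, had -0.02 ± 0.17. The smallest p among the 11 Ccl25 peaks was 22681 bp after that start, with 2.16, 1.75 and 2.61 CPM in aged and 1.60, 1.88 and 0.318 in young libraries, where young 4 stands low (0.54 ± 0.31, edgeR adjusted p = 0.697). Summed over its neighbourhood the log2 fold change was 0.01, with a 95% interval of -0.12 to 0.15.

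Ccl28, the ligand of Ccr10 and Ccr3 that draws IgA plasma cells to mucosal surfaces, varied more between young libraries than between ages. The peak 3917 bp before its start had 59.7, 62.8 and 60.3 CPM in aged libraries and 52.7, 27.1 and 70.9 in young libraries. The start-site peak had 37.6, 34.3 and 37.4 CPM in aged and 36.7, 18.9 and 42.7 in young libraries. An intronic peak 3334 bp after the start had 29.9, 29.2 and 33.8 CPM in aged and 31.4, 13.3 and 31.7 in young libraries. In all 3, young 2 stood alone, at 0.514, 0.550 and 0.455 of the lowest of the other libraries, and the other 5 lay close together. The fourth was the intronic peak 9920 bp after the start, with 3.64, 2.92 and 4.43 CPM in aged and 2.70, 0.495 and 3.34 in young libraries.

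Peaks between these did not share that drop. At 8158 bp after the Ccl28 start, aged libraries had 16.5, 19.7 and 15.7 CPM and young libraries 17.5, 17.5 and 16.2 CPM, and at 2318 bp aged libraries had 5.79, 6.10 and 4.71 CPM and young libraries 5.67, 4.51 and 6.53 CPM, with young 2 the lowest by a small margin. Among all 26450 tested peaks averaging at least 10 CPM, young 2 was at or under 0.6 of the lowest other library in 3, and these were the 3 Ccl28 peaks; the limit of 0.6 was chosen after the values were seen. At the same limit the other libraries had 0 (each aged library), 2 (young 1) and 17 (young 4) such peaks, none assigned to a member. Young 2 was not shallow, with 20046684 counts in peaks.

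**Figure D5:**
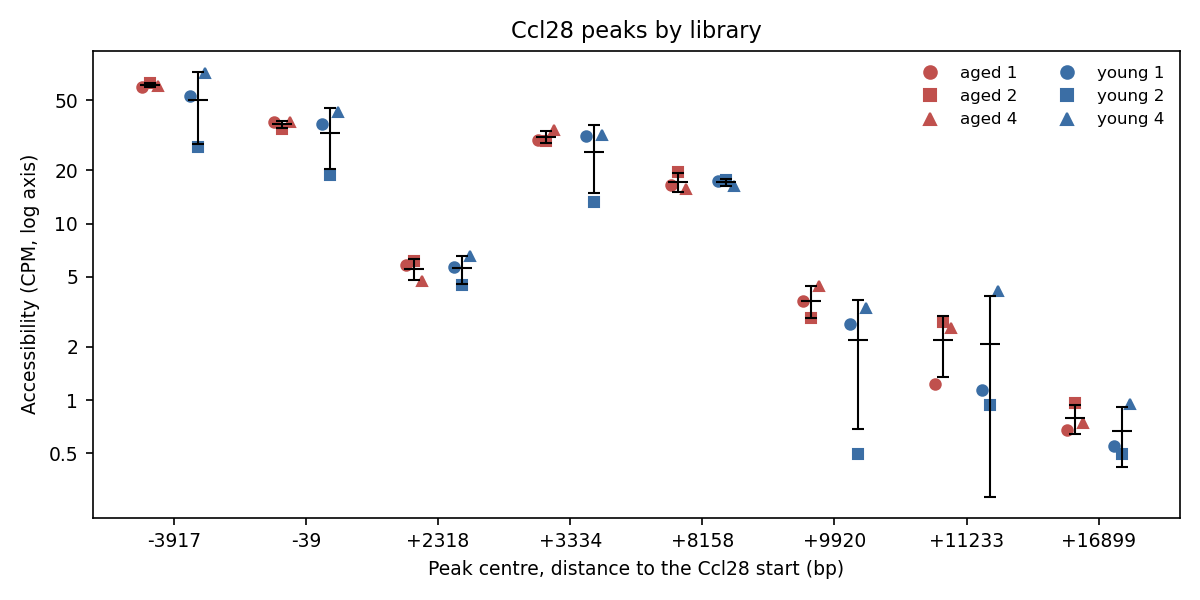
CPM on a log axis at the 8 tested Ccl28 peaks, ordered by distance of the peak centre from the start in bp; symbols are libraries and black marks mean ± SD per age (n = 3). Young 2 (blue square) is the lowest library at every peak except +8158, by a wide margin at -3917, -39, +3334 and +9920.

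The age comparison of Ccl28 rests on that library. Its promoter had a log2 fold change of 0.24 ± 0.32 with all libraries and -0.07 ± 0.11 without young 2, and its neighbourhood 0.25 ± 0.29 and, without young 2, -0.01; no value was called by edgeR. With the replicate number as a block, the peak at 9920 bp was called (log2 fold change 0.94, edgeR adjusted p = 0.0123), against 0.91 ± 0.45 and an adjusted p of 0.634 without it. Leaving out young 2, with no block, brought that peak to 0.32 (edgeR adjusted p = 0.959). A weak peak 27316 bp before the Ccl28 start, inside an intron and named for Gm21967, was called higher in aged cells, with 1.60, 4.55 and 4.43 CPM in aged and 1.56, 1.24 and 1.75 in young libraries (1.29 ± 0.31, edgeR adjusted p = 0.0199). Aged 1 lay within the young range there, and the call was lost without aged 2, aged 4, young 2 or young 4 (log2 fold change 1.05 to 1.35), with DESeq2 (adjusted p = 0.0673), with limma-voom (0.156) and after thinning (0.209).

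The signalling genes that switch the inducible chemokines on were read in the same way, from lists of NF-kB and interferon pathway genes. Of 27 NF-kB pathway genes, 18 had a tested promoter and 0 were called, with 4 at an unadjusted p below 0.05, against 8.93% of all promoters, and all above 0: Il17rc, a subunit of the interleukin 17 receptor (0.27 ± 0.08), Nfkb2, which encodes an NF-kB subunit (0.15 ± 0.06), the adaptor Traf6 (1.04 ± 0.44) and the TNF receptor gene Tnfrsf1b (0.21 ± 0.09). Of the 18 tested promoters, 11 were above 0 and 7 below. Summed over all 18, the level was 1694 to 1758 CPM of promoter reads in aged and 1560 to 1654 in young libraries. With the replicate block Il17rc was called (0.25, edgeR adjusted p = 0.0337), as were 464 of all 13880 promoters. At neighbourhoods, Traf2 was called higher among 24 tested (1.02 ± 0.24, edgeR adjusted p = 0.0254), a call lost without aged 2, aged 4, young 1 or young 2 (0.81 to 0.96), without TMM (adjusted p = 0.0545) and after thinning (0.0832), and absent by position (0.02). With the block, the neighbourhoods of Nfkbia, an NF-kB inhibitor (0.15, adjusted p = 0.0167), the subunit gene Relb (0.16, 0.0394) and the TNF receptor gene Tnfrsf1a (0.19, 0.0230) were also called by edgeR. Of all 27234 neighbourhoods, 500 (1.84%) were called without the block and 1262 with it. Of 14 interferon pathway genes, 11 had a tested promoter, 0 were called and 0 had an unadjusted p below 0.05; Irf8 was lowest at -0.11 ± 0.08 and Ifnlr1 highest at 0.10 ± 0.12.

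Other chemokine genes and the receptors gave no call at promoters either. Of 28 other chemokines, 6 had a tested promoter, among them Ccl27a (-0.19 ± 0.12), Ccl26 (0.15 ± 0.12), Cxcl12 (-0.22 ± 0.22) and Cxcl11 (0.18 ± 0.31). Of these 6, 3 were above 0 and 3 below. Their sums overlapped, at 108.1 to 119.1 CPM of promoter reads in aged and 108.6 to 134.3 in young libraries. At neighbourhoods 12 of 17 were below 0. The sum over all 17, of which Ccl26 is a large part, was 260.5 to 262.1 CPM of neighbourhood reads in aged and 274.6 to 300.7 in young libraries. The lowest p there was that of Ccl26, at 54.3, 50.8 and 51.8 CPM in aged and 66.8, 58.4 and 63.9 in young libraries (-0.27 ± 0.08, edgeR adjusted p = 0.128), called with the replicate block (-0.26, adjusted p = 0.00716) and, with the peaks within 1000 bp left out, at -0.43 (adjusted p = 0.0227). Of 22 chemokine receptors, 4 had a tested promoter, among them Cxcr4 (-0.44 ± 0.24), Cx3cr1 (-0.12 ± 0.16) and Ackr3 (0.12 ± 0.22).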

How the data were processed

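Tn5 libraries of sorted epithelium were amplified with 17 PCR cycles, per the labels' protocols. The authors deposited raw read counts per consensus peak, with a companion table of position, class, nearest gene and distance to its start; 24 sample records are 6 libraries on 4 lanes each, with 1 column of counts per library. The submitters' processing notes name BWA 0.7.17-r1188, MACS2 2.2.7.1 and featureCounts 2.0.1 and the build GRCm38; the peak caller's settings, pooling and any shift of reads for the Tn5 offset are not stated in the sources used. Distances in the deposited table run from the start to the peak centre.

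From the deposited counts, edgeR 4.0.16 (R 4.3.3) was run with filterByExpr, TMM scaling and the robust quasi-likelihood test, with age as the only term, over all peaks, then over counts summed per gene within 1000 bp and within 50000 bp. Benjamini-Hochberg adjustment covered all features of a level. SE is the log2 fold change over the root of the F statistic, and 95% intervals use the test's degrees of freedom. CPM of peaks, promoters and neighbourhoods have different denominators. DESeq2 1.42.0 and limma 3.58.1 (voom) were alternatives, with other scalings, filters, windows, thinning, left-out libraries and assignment by position, the last chosen after the data were seen.

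The members and gene lists were chosen with earlier results of these data known. All members are named, with for each the peak nearest its start, the one of smallest p and every called peak; of other lists, the up to 4 promoters of smallest p and every called gene were eligible; one called gene, the enteroendocrine factor Isl1, appears under the other observations. Same-numbered libraries deviated together (r of deviations over peaks 0.287, 0.209 and 0.167, against -0.209 to 0.0279 for different numbers). Deviations from an age's mean sum to 0 at each peak. Positive values for same numbers thus push those for different numbers down, and the latter are no separate evidence. The numbers may therefore mark pairs, although no label states what they mark. The main test stayed without this block, and every headline count is from that unpaired fit. Values with the block are given for named genes where it changes a call. Of the other lists, it also called the neighbourhood of Cybrd1, lower in aged cells (-0.22, edgeR adjusted p = 0.0433). The script was tested on simulated data.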

Additional observations from a re-analysis of the deposited data

How the results depend on the processing

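Of the 2 member peaks called, only that of Cx3cl1 was left with DESeq2's size factors in edgeR, without TMM, with limma-voom, without robust dispersions and without a filter on low counts. Only that of Cxcl16 was left after thinning to the shallowest library. The count was 0 with DESeq2, and 0 to 1 when 1 library was left out. The cause was not tested. The replicate block gave 3. Member promoters called were 0, with 1 (Cxcl16) at an adjusted p below 0.10, with limma-voom and with the replicate block, and 0 to 1 with a library left out. Member neighbourhoods called were 0, with 1 (Cxcl16) under the replicate block and 0 without any 1 library. The block raised calls over all peaks to 3998, against 2077 without it, over promoters to 464, against 242, and over neighbourhoods to 1262, against 500. Thinning left 754 called peaks, 114 promoters and 283 neighbourhoods. DESeq2 called 1291 peaks. Leaving out young 2 left 1216 peaks, 161 promoters and 272 neighbourhoods, leaving out aged 4 left 315 neighbourhoods, and assignment by position called 282 neighbourhoods. Among member values the block changed no call beyond the Cxcl16 promoter and neighbourhood and the Ccl28 peak at 9920 bp. Under all alternatives together, 1474 values of 83 member peaks, promoters and neighbourhoods were recomputed: 1450 kept their side of the threshold, 18 lost a call, 6 gained one and 0 changed sign with a call. The sign changed at some setting in 51 of the 83, none of them called, with a log2 fold change of at most 0.33 in size. Weak peaks limit the Cxcl1, Cxcl2 and Cxcl5 comparisons, and 3 libraries per age, 1 of them shallow, limit all.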

Other observations

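Among the cell type lists read beside the chemokines, 1 promoter was called: Isl1, a transcription factor of enteroendocrine cells, with 4.71, 6.13 and 4.90 CPM of promoter reads in aged libraries and 12.8, 14.2 and 13.2 in young libraries (log2 fold change -1.34 ± 0.23, edgeR adjusted p = 0.000687). It was called without each library in turn. The enteroendocrine promoters as a group had 3 of 7 above 0 and 4 below, and Pax6, another factor of that lineage, had 42.2, 48.5 and 38.9 CPM of promoter reads in aged and 33.0, 34.7 and 38.0 in young libraries (0.32 ± 0.12, edgeR adjusted p = 0.329). The tuft cell genes Trpm5 (0.34 ± 0.16, adjusted p = 0.545) and Pou2f3 (0.28 ± 0.14, adjusted p = 0.592) had aged libraries above young ones without overlap, uncalled by edgeR. The share of promoters without overlap was not counted, and over all tested peaks it was 13.9%.

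Over the 64 tested member peaks, young 2 was the lowest of the 6 libraries at 26.6%, against 11.8% of all tested peaks. Those 17 peaks include every tested Ccl28 peak except that at 8158 bp, so much of this share is 1 locus. Young 4, the shallowest library, was the highest at 42.2%, against 25.1% of all peaks. Aged 4 was the highest at 25.0% of member peaks, against 18.6% of all peaks.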
